A study of Homo sapiens with 9 samples.

Results

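The hairpins of miR-193a, miR-193b, miR-365a and miR-365b lie in 2 small clusters of the human genome. One holds hsa-mir-193b and hsa-mir-365a on chromosome 16, and the other holds hsa-mir-193a and hsa-mir-365b on chromosome 17. The 4 members are the hairpins of these names in the deposited count table, 4 of its 1485 hairpins, chosen by name.

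A miRNA is cut as a stem-loop (the hairpin, or precursor) from a longer transcript by the Microprocessor, the nuclear complex of DROSHA and DGCR8. DICER then releases the mature strands, named 5p and 3p after the arm they come from, and a mature miRNA finds its targets mainly through its seed. The cluster of miR-193b and miR-365a has been reported to promote brown fat differentiation in the mouse. miR-193a and miR-193b are known to repress the cell cycle gene CCND1, the survival gene MCL1 and the protease gene PLAU, and miR-365a is known to repress the lung lineage factor NKX2-1. ERH, the protein targeted here by siRNA, is a small nuclear factor known to bind DGCR8, and neighbouring hairpins of a transcript can be cut with different efficiency.

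Small RNAs were sequenced in 9 libraries. HEK293E cells, which derive from the human embryonic kidney line HEK293, were given siRNA on days 0 and 3 and collected on day 5. Replicates 1 and 2 each hold a siGFP, a siControl and a siERH-3 library, and replicate 2 also holds a siERH-5 library, which gives 4 control and 3 siERH libraries. K562, a line from a chronic myeloid leukaemia, was electroporated once with siGFP or siERH-5 and collected on day 4, with 1 library each. Libraries held 2609929 to 3320017 hairpin counts, so that 3 counts correspond to 0.904 to 1.15 counts per 1000000 library counts (CPM). Detected hairpins numbered 1208 to 1263 in the HEK293E controls, 1288 to 1297 in HEK293E with siERH, and 1061 and 1163 in K562. Of 7 blood and erythroid marker hairpins, 6 were above every HEK293E control library in both K562 libraries, and hsa-mir-150 was not, with 13 and 15 counts against 5 to 15. The level of ERH itself is not measured by small RNA counts, so knockdown was not checked here.

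The mature sequences show which members can be told apart by their reads. They are written 5′ to 3′ from RefSeq (GRCh38.p14), with the seed (bases 2 to 8) in capitals.
hsa-miR-193b-3p: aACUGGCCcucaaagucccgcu
hsa-miR-193a-3p: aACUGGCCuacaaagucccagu
hsa-miR-365a-3p: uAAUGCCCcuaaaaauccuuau
hsa-miR-365b-3p: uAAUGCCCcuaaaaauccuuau
hsa-miR-193b-5p: cGGGGUUUugagggcgagauga
hsa-miR-193a-5p: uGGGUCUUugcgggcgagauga
hsa-miR-365a-5p: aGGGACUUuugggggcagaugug
hsa-miR-365b-5p: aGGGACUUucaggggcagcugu

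The 3p strands of miR-193a and miR-193b have the same seed and differ at 4 of 22 bases (C9U, U10A, G20A and C21G, with the base of miR-193b first and positions counted from the 5′ end). Their 5p strands differ at 4 bases, C1U, G5U, U6C and A11C, of which G5U and U6C fall in the seed. The 3p strands of miR-365a and miR-365b are identical over all 22 bases. Their 5p strands share a seed and differ at 3 of 22 aligned bases, U10C, G11A and A19C, with the base of miR-365a first. The 8 mature strands hold 5 seeds, and none of the other strands among the 2545 mature entries of the RefSeq table has one of these 5 seeds.

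The hairpins are shown because the neighbours of a cluster lie on 1 strand a short way apart and yet differ in the stem around the mature strands. Capitals mark the 2 mature strands.
hsa-mir-193b: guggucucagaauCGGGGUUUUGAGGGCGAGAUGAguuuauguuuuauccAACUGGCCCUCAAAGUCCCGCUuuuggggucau
hsa-mir-365a: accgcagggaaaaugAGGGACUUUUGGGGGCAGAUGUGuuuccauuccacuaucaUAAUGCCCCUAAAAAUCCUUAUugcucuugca
hsa-mir-193a: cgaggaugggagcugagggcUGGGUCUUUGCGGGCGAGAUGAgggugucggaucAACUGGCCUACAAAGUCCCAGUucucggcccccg
hsa-mir-365b: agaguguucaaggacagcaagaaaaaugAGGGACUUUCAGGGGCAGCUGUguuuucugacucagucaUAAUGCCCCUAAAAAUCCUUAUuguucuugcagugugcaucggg

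In GRCh38, hsa-mir-193b lies at chr16:14303967-14304049 and hsa-mir-365a at chr16:14309285-14309371, 5235 bases apart on the plus strand. Both fall in introns of the long non-coding RNA gene MIR193BHG. On chromosome 17, hsa-mir-193a lies at chr17:31559996-31560083, in no annotated host gene on its strand, and hsa-mir-365b at chr17:31575411-31575521, 15327 bases further on the plus strand. hsa-mir-365b overlaps an exon of the long non-coding RNA gene AC003101.1 by 11 bases. The hairpin hsa-mir-4725 lies 52 bases from hsa-mir-365b and was the only other hairpin of the table within 20 kb of a member. It had 1 to 19 counts in the HEK293E libraries and 0 in both K562 libraries, where a count of 0 allows up to 1.15 and 0.904 CPM.

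The hairpins differ in composition and predicted folding. hsa-mir-193a had the highest GC content, 63.6%, against 49.4% for hsa-mir-193b, 44.8% for hsa-mir-365a and 45.0% for hsa-mir-365b, and the median of 772 hairpins tested in HEK293E was 51.1%. The predicted minimum folding energy per base was -0.57 kcal/mol for hsa-mir-193a, -0.47 for hsa-mir-193b, -0.40 for hsa-mir-365a and -0.35 for hsa-mir-365b, with a median of -0.47. Of the 772 hairpins, 170 were more stable per base than hsa-mir-193a and 688 more than hsa-mir-365b, so the 2 hairpins of the chromosome 17 cluster lie far apart on this scale. Their annotated lengths are 88 and 111 bases and their total energies -50.2 and -39.3 kcal/mol. The value per base depends on how much flank is annotated.

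The counts of hsa-mir-365a and hsa-mir-365b were nearly equal in every library. The excess of hsa-mir-365a over hsa-mir-365b was 29, 22 and 17 counts in HEK293E siGFP, siControl and siERH-3 of replicate 1. It was 6, 0, 12 and 5 counts in siGFP, siControl, siERH-3 and siERH-5 of replicate 2, and 50 and 16 counts in K562 with siGFP and siERH-5. These differences amount to between 0.0% and 1.65% of the hsa-mir-365a count. How reads that fit both hairpins were counted is not stated, so the values of hsa-mir-365a and hsa-mir-365b are a single measurement and neither locus can be read on its own. hsa-mir-193a and hsa-mir-193b differ in both mature strands and have values of their own.

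In HEK293E controls hsa-mir-193b was the most abundant of the 4 hairpins. Levels are in CPM after TMM scaling of the libraries, and since each read is a short RNA of mature size, no correction for length was made. hsa-mir-193b averaged 3241 ± 691 CPM (SD, n = 4), rank 90 of 773 hairpins. hsa-mir-365a averaged 1681 ± 344 CPM, hsa-mir-365b 1676 ± 348 CPM and hsa-mir-193a 1586 ± 269 CPM, at ranks 128, 129 and 131. The control range of hsa-mir-193b, 2484 to 4030.1 CPM, lay above those of the others, whereas the ranges of hsa-mir-193a (1326 to 1915 CPM) and hsa-mir-365a (1374 to 2152 CPM) overlapped. With siERH the order was hsa-mir-193b at 1969 ± 198 CPM (SD, n = 3), hsa-mir-193a at 849 ± 72.9 CPM and hsa-mir-365a at 709 ± 105 CPM, and the ranges of the last pair again overlapped.

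The main comparison asked whether the members differ when ERH is targeted in HEK293E. All 4 hairpins fell with siERH, and on the TMM scale all 3 siERH libraries were below all 4 control libraries in each of them. The decrease was 2.37-fold for hsa-mir-365a, 2.38-fold for hsa-mir-365b, 1.87-fold for hsa-mir-193a and 1.65-fold for hsa-mir-193b. Over all 773 hairpins tested, 16.2% were called lower, 23.8% were called higher and 19.1% had all siERH libraries below all controls. Since hsa-mir-365a and hsa-mir-365b are 1 measurement, the 4 calls rest on 3 separate values. These are whole-culture RNA samples, so fewer cells holding a miRNA and fewer copies per cell cannot be told apart.

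hsa-mir-365a stood at 1484 and 1714 CPM with siGFP in replicates 1 and 2, and at 1374 and 2152 CPM with siControl. With siERH it stood at 596 and 804 CPM for siERH-3 in replicates 1 and 2 and at 725 CPM for siERH-5 in replicate 2. The highest siERH library was below the lowest control, and the controls of replicate 2 were above those of replicate 1. The log2 fold change of hsa-mir-365a was -1.25 ± 0.20 (SE, quasi-likelihood test of edgeR, Benjamini-Hochberg adjusted p = 0.000983, 3 libraries against 4), and 35 of 773 hairpins had a lower value. hsa-mir-365b, with 1367 to 2152 CPM in controls and 591 to 801 CPM with siERH, gave -1.25 ± 0.20 (SE) with an adjusted p of 0.00101 in edgeR.

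hsa-mir-193a stood at 1915 and 1693 CPM with siGFP in replicates 1 and 2, at 1411 and 1326 CPM with siControl, at 786 and 834 CPM with siERH-3 and at 929 CPM with siERH-5. The control siRNAs were themselves apart, with both siGFP libraries above both siControl libraries, and all siERH libraries lay below either. The log2 fold change of hsa-mir-193a was -0.90 ± 0.18 (SE) with an adjusted p of 0.00288 in edgeR, and 66 of 773 hairpins had a lower value.

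hsa-mir-193b stood at 4030.1 and 2881 CPM with siGFP in replicates 1 and 2, at 3567 and 2484 CPM with siControl, at 2197 and 1838 CPM with siERH-3 and at 1873 CPM with siERH-5. For each siRNA given in both replicates, the library of replicate 2 was below that of replicate 1, and the arms did not overlap on the TMM scale. By library totals they did, with siERH-3 of replicate 1 at 2400 CPM and siControl of replicate 2 at 2131 CPM. The log2 fold change of hsa-mir-193b was -0.72 ± 0.19 (SE) with an adjusted p of 0.0125 in edgeR, and 109 of 773 hairpins had a lower value. This call was lost when libraries were scaled by their totals (-0.55, edgeR adjusted p = 0.0846), without siERH-3 of replicate 2 (-0.67, adjusted p = 0.0605) and without siERH-5 of replicate 2 (-0.67, adjusted p = 0.0573). Scaling by totals moved the median over all 773 hairpins from -0.01 to 0.19, and with the replicate number as a block all 4 members were called, as were 20.6% of hairpins in that direction.

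**Figure D1:**
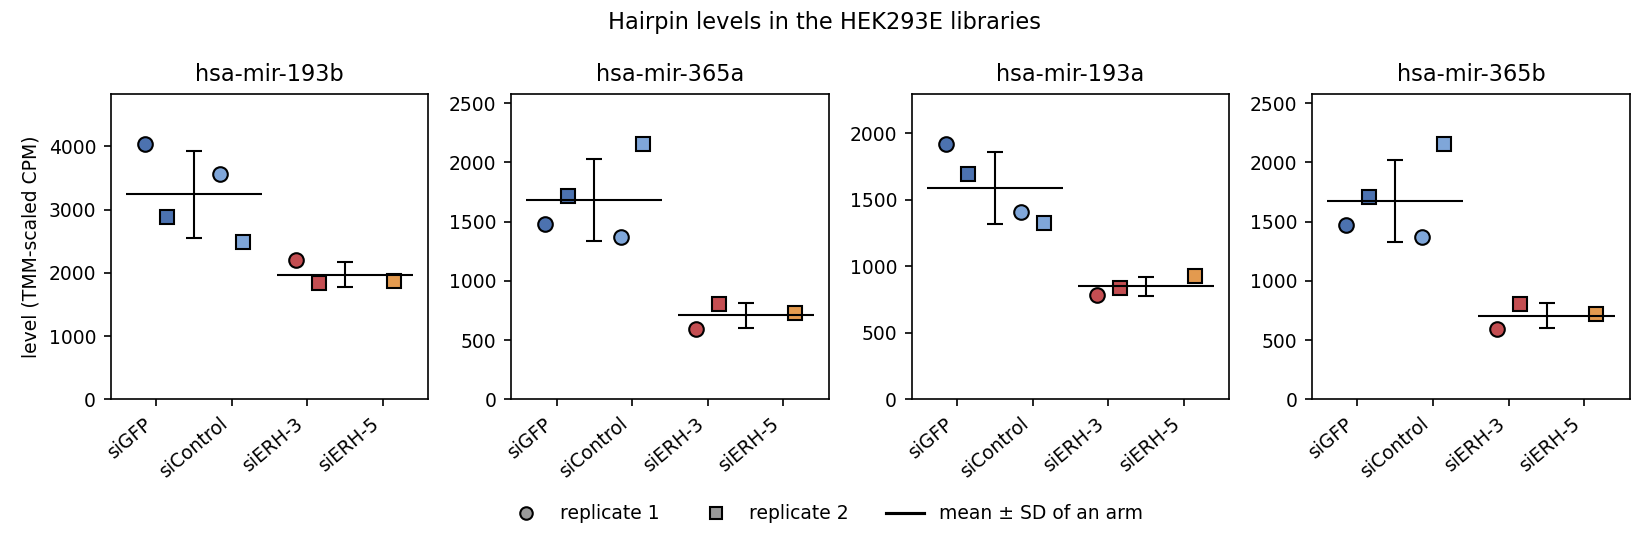
Levels of the 4 hairpins in the 7 HEK293E libraries, in TMM-scaled CPM on linear axes that start at 0, with circles for replicate 1, squares for replicate 2, and lines and bars for the mean ± SD of the 4 control and the 3 siERH libraries. The siERH libraries of hsa-mir-365a sit at 596 to 804 CPM under controls of 1374 to 2152 CPM, and those of hsa-mir-193b, at 1838 to 2197 CPM, come closest to their controls.

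The replicates are separate experimental groups in the labels, so each siERH library was also set against the mean log2 level of the controls of its own replicate. For hsa-mir-365a the log2 ratio was -1.26 with siERH-3 in replicate 1, -1.25 with siERH-3 in replicate 2 and -1.40 with siERH-5 in replicate 2. For hsa-mir-193a it was -1.06, -0.85 and -0.69 in the same order, and for hsa-mir-193b -0.79, -0.54 and -0.51. Both siRNAs against ERH and both replicates gave decreases of all members, and in each siERH library the decrease of hsa-mir-365a and hsa-mir-365b was the largest and that of hsa-mir-193b the smallest. The order of the miR-193 hairpins depended on the processing. With the trend on GC content removed, the fit of siERH against control gave -0.75 for hsa-mir-193a and -0.84 for hsa-mir-193b. With the replicate block as well, it gave -0.77 and -0.75. The siERH-5 values come from 1 library and have no replicate check. On library totals the siERH-5 ratios were nearer to 0, at -0.39 for hsa-mir-193a, -0.22 for hsa-mir-193b and -1.11 for hsa-mir-365a.

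siERH-3 alone was compared with the 4 controls because it is the siRNA with 2 replicates. Across 759 hairpins, 11.5% were called lower, and 3 of the 4 members were among them. The log2 fold change was -1.25 ± 0.25 (SE) for hsa-mir-365a, with an adjusted p of 0.00761 in edgeR, and -0.96 ± 0.21 for hsa-mir-193a, with an adjusted p of 0.0117. It was -1.26 ± 0.25 for hsa-mir-365b (edgeR adjusted p = 0.00761). hsa-mir-193b did not pass, at -0.67 ± 0.23 (edgeR adjusted p = 0.0573), and did pass with the replicate number as a block (-0.66, edgeR adjusted p = 0.00499), where 18.7% of all hairpins were called lower. With 1 of the siERH-3 libraries left out, the lone library is assumed to vary like the controls. Without siERH-3 of replicate 1, hsa-mir-365a, hsa-mir-365b and hsa-mir-193a kept values of -1.03, -1.03 and -0.90 and were not called (edgeR adjusted p = 0.0937, 0.0941 and 0.129), nor was hsa-mir-193a without siERH-3 of replicate 2 (-0.99, edgeR adjusted p = 0.104).

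The 2 control siRNAs give the background for these values. The quasi-likelihood test of edgeR called 0 of 730 hairpins between siControl and siGFP (0.0%, 2 libraries against 2), with 24 at an unadjusted p under 0.05, and DESeq2 called 2 lower and 2 higher. On simulated data the edgeR test of this size recovered 57 of 200 2-fold changes (28.5%), so it would miss most differences of that extent. hsa-mir-193a was lower with siControl in both replicates, with log2 ratios of -0.44 and -0.35, and -0.41 ± 0.25 (SE) in the fit, with an adjusted p of 0.959 in edgeR. No siControl library of it overlapped a siGFP library, as for 15.8% of hairpins in that direction. Its value with the replicate block was -0.40 ± 0.11 (edgeR adjusted p = 0.00544), in a fit that called 8.36% of hairpins lower and 9.86% higher, 61 and 72 in number. hsa-mir-193b gave -0.21 and hsa-mir-365a 0.14, neither called with or without the block, and the siControl to siGFP ratio of hsa-mir-365a went in opposite directions in replicates 1 and 2, -0.11 and 0.33.

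The next comparison asked whether the miR-193 and miR-365 hairpins moved to different extents. It used the ratio of neighbour counts within each library, which no scaling can alter. As the miR-365 values are a single measurement, the ratio cannot show how a locus moved against its own neighbour. In the chromosome 16 cluster, hsa-mir-193b had 2.72 and 2.60 times the count of hsa-mir-365a in the siGFP and siControl libraries of replicate 1, and 1.68 and 1.15 times in those of replicate 2. With siERH-3 the ratio was 3.68 in replicate 1 and 2.28 in replicate 2, and with siERH-5 it was 2.58 in replicate 2. Within each replicate every siERH library had a higher ratio than both controls, but the replicates stood so far apart that the arms overlapped. The mean log2 ratio was 0.94 ± 0.58 (SD, n = 4) in controls and 1.48 ± 0.36 (SD, n = 3) with siERH, a difference of 0.54 (two-sided exact permutation test over 35 splits, p = 0.286, adjusted p = 0.457 over 4 ratios, where 0.0286 is the smallest p possible). Centred on the replicate, the difference was 0.67, from 0.47 within replicate 1 and 0.80 within replicate 2 (exact permutation test over 18 splits, p = 0.0556, the smallest p this design can give).

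In the chromosome 17 cluster, hsa-mir-193a had 1.30 and 1.03 times the count of hsa-mir-365b with siGFP and siControl in replicate 1, and 0.989 and 0.616 times in replicate 2. With siERH the ratio was 1.33 for siERH-3 in replicate 1, 1.04 for siERH-3 in replicate 2 and 1.28 for siERH-5 in replicate 2. Here too each siERH library exceeded both controls of its replicate, in replicate 1 by a small margin over siGFP. The mean log2 ratio was -0.07 ± 0.45 (SD, n = 4) in controls and 0.28 ± 0.19 (SD, n = 3) with siERH, a difference of 0.35 (two-sided exact permutation test, p = 0.2, adjusted p = 0.457). Centred on the replicate, it was 0.42, from 0.20 within replicate 1 and 0.57 within replicate 2 (exact permutation test over 18 splits, p = 0.167). The difference without centring was 0.10 against the siGFP libraries alone, 0.60 against the siControl libraries alone and 0.14 without siControl of replicate 2.

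Because hsa-mir-365a and hsa-mir-365b are read as 1 measurement, the neighbour ratios are not independent of each other, and neither can be assigned to its own cluster. With hsa-mir-365b or the sum of both copies in place of hsa-mir-365a, the difference for hsa-mir-193b was 0.54 in each case. Without siControl of replicate 2 it was 0.29, and without siERH-3 of replicate 1 it was 0.34. The paralogues hsa-mir-193a and hsa-mir-193b, which share no locus, had a log2 ratio of -1.02 ± 0.25 (SD, n = 4) in controls and -1.21 ± 0.24 (SD, n = 3) with siERH, a difference of -0.19 (exact permutation test, p = 0.343, adjusted p = 0.457) that lay between -0.30 and -0.05 with a library left out. Centred on the replicate it was -0.25, from -0.28 and -0.24 within replicates 1 and 2 (exact permutation test, p = 0.111). That of hsa-mir-365a to hsa-mir-365b was 0.0046 in controls and 0.0072 with siERH (exact permutation test, p = 0.486). Centred on the replicate, the siERH difference of this ratio was 0.0038 (exact permutation test over 18 splits, p = 0.0556). So a difference this small, within what is read as a single measurement, reached the same smallest p as hsa-mir-193b to hsa-mir-365a.

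The member pairs were set beside all 109 pairs of neighbouring hairpins within 20 kb on a strand. The absolute difference in log2 ratio between siERH and control had a median of 0.42 over these pairs, and 42 pairs exceeded that of hsa-mir-193b and hsa-mir-365a and 64 that of hsa-mir-193a and hsa-mir-365b. In 30.3% of the pairs the siERH libraries all lay outside the range of the controls, and neither member pair was among them. Centred on the replicate, the median was 0.39, and 32 and 51 pairs exceeded the member pairs, whose differences were 0.67 and 0.42. Pairs share hairpins and clusters, so these ranks are a description. Some pairs are copies of a hairpin whose difference is 0.0 or close to it, and copied clusters enter more than once. These pairs were not left out, here or for K562 below.

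**Figure D2:**
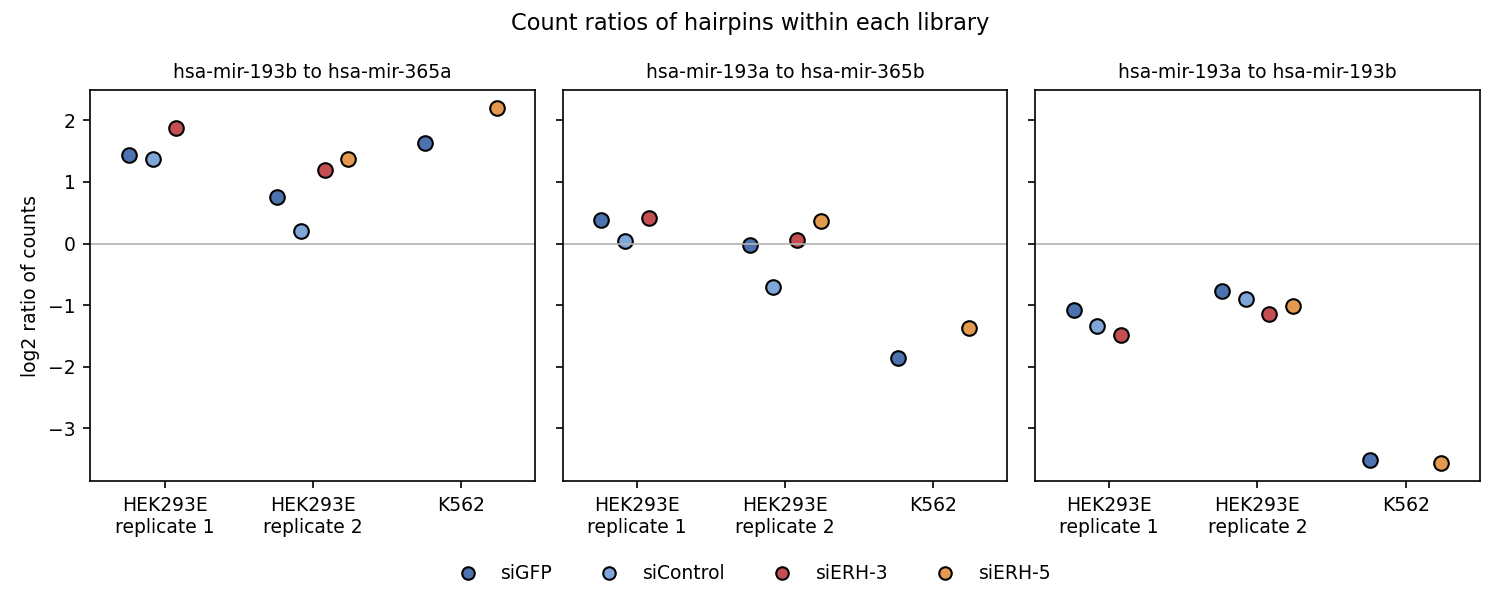
log2 count ratios within each library for hsa-mir-193b to hsa-mir-365a, hsa-mir-193a to hsa-mir-365b and hsa-mir-193a to hsa-mir-193b, with 1 point per library, coloured by siRNA and placed by cell line and replicate. In the left panel the siERH points lie above the control points of the same replicate and line, and in the right panel both K562 points lie below all HEK293E points.

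In K562 the siERH-5 library was set against the siGFP library, without a replicate, so there is no test. The siGFP library held 3033 counts of hsa-mir-365a and the siERH-5 library 2651, which is 2183 and 1209 CPM on a TMM scale over 9 libraries. Its log2 ratio was -0.85 (-0.93 to -0.78, a 95% interval for counting error only), and 60 of 646 hairpins had a lower ratio. hsa-mir-193a had 820 and 1024 counts, or 590.3 and 467 CPM, with a log2 ratio of -0.34 (-0.47 to -0.21), and hsa-mir-193b had 9363 and 12147 counts, or 6740.1 and 5539 CPM, with a log2 ratio of -0.28 (-0.32 to -0.24). No member was lower by 2-fold or more, which 7.59% of the 646 hairpins were. All 4 ratios were below the median of the 646 hairpins, 0.09.

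Whether the 2 miR-193 hairpins were lower in K562 depended on the scale. Scaled by library totals, the log2 ratio was -0.02 for hsa-mir-193a and 0.03 for hsa-mir-193b, which changes the sign of the latter, while hsa-mir-365a stayed below 0 at -0.54. The median of all 646 hairpins was 0.37 on that scale, and all members were below it. On the TMM scales the siERH-5 ratios in HEK293E replicate 2 and in K562 were -1.40 and -0.85 for hsa-mir-365a, -0.69 and -0.34 for hsa-mir-193a, and -0.51 and -0.28 for hsa-mir-193b. In both lines hsa-mir-365a had a lower ratio than either miR-193 hairpin, whose counting intervals overlap in K562, and the difference between the lines was not tested.

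**Figure D3:**
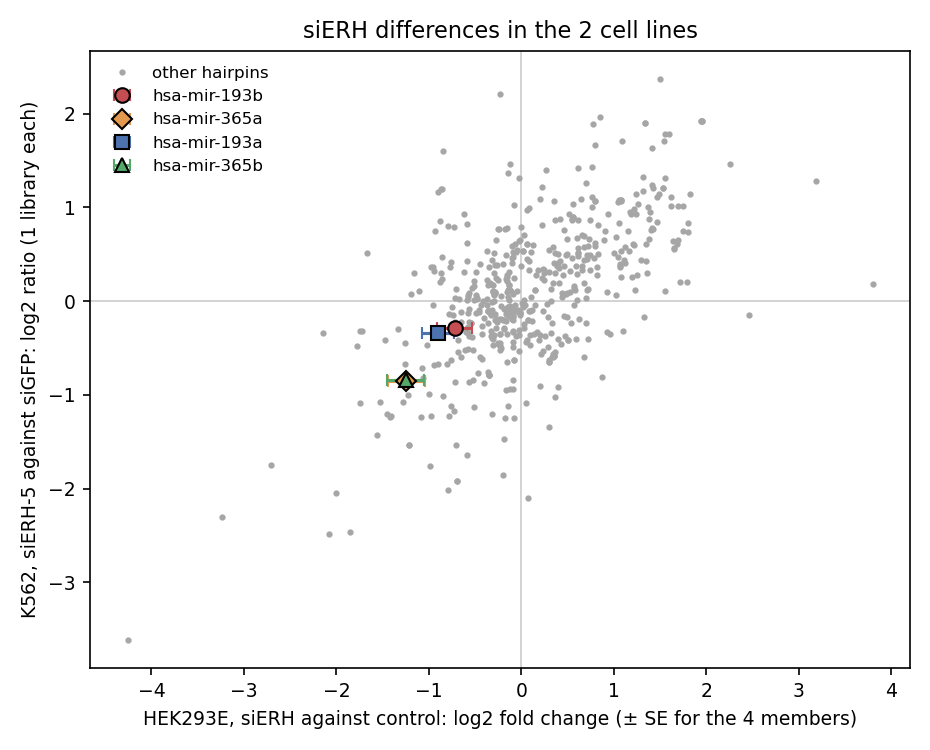
log2 fold change of siERH against control in HEK293E (x axis, edgeR) and log2 ratio of siERH-5 to siGFP in K562 (y axis, 1 library each) for 556 hairpins measured in both, with the 4 hairpins in colour and their SE in HEK293E as bars. hsa-mir-365a and hsa-mir-365b coincide at -1.25 and near -0.85, and hsa-mir-193a and hsa-mir-193b lie nearer to 0 on both axes.

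Count shares within K562 do not depend on the scale. hsa-mir-193b made up 75.5% (74.8% to 76.3%, 95% Wilson interval) of the counts of its pair with hsa-mir-365a in the siGFP library and 82.1% (81.5% to 82.7%) in the siERH-5 library. hsa-mir-193a made up 21.6% (20.3% to 22.9%) of its pair with hsa-mir-365b with siGFP and 28.0% (26.6% to 29.5%) with siERH-5. The log2 ratios rose by 0.57 (0.49 to 0.65) and 0.50 (0.35 to 0.65), beyond counting error, in the direction seen within each HEK293E replicate. These intervals leave out the spread between libraries, which 1 library per arm cannot show. In HEK293E, siGFP and siControl gave 1.44 and 1.38 in replicate 1 for hsa-mir-193b to hsa-mir-365a, and 0.75 and 0.21 in replicate 2. For hsa-mir-193a to hsa-mir-365b they gave 0.38 and 0.05 in replicate 1, and -0.02 and -0.70 in replicate 2. Both K562 rises rest on what is read as a single miR-365 measurement, so they are not independent. The share of hsa-mir-193a in the sum of hsa-mir-193a and hsa-mir-193b was 8.05% (7.54% to 8.60%) and 7.77% (7.33% to 8.24%), which overlap. Of 84 neighbour pairs measured in K562, 31 had a larger absolute change than hsa-mir-193b and hsa-mir-365a and 38 a larger one than hsa-mir-193a and hsa-mir-365b, with a median of 0.42.

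Between the lines, the balance of the 2 miR-193 hairpins differed. How often other pairs of hairpins differ as much between the lines was not examined. In K562 with siGFP, hsa-mir-193b had 11.4 times the count of hsa-mir-193a, and 11.9 times with siERH-5, whereas the excess in the 7 HEK293E libraries was 1.70 to 2.80 times. The count of hsa-mir-365b was 3.64 times that of hsa-mir-193a in the K562 siGFP library and 0.771 to 1.62 times in the HEK293E controls. hsa-mir-193b had 3.09 times the count of hsa-mir-365a in K562 with siGFP, above the 1.15 to 2.72 times of the HEK293E controls by less than these differ among themselves. The lines also differ in transfection, harvest day and experimental group, and K562 has 1 control library, so these cannot be told apart from the line.

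Levels between the lines depended on the scale, with hsa-mir-193a lower in K562 on both. On the TMM scale over 9 libraries hsa-mir-193a stood at 590.3 CPM in K562 siGFP against 1345 ± 244 CPM (SD, n = 4) in HEK293E controls, and by library totals at 314 CPM against 1520.2 ± 398 CPM. hsa-mir-193b stood at 6740.1 CPM in K562 against 2742 ± 573 CPM on the TMM scale, above all controls, but at 3582 CPM against 3121 ± 966 CPM by library totals, within the control range. For hsa-mir-365a the direction flipped, from 2183 CPM in K562 against 1427 ± 310 CPM on the TMM scale to 1160.3 CPM against 1577 ± 222 CPM by library totals. The TMM scale put 36.4% of 745 hairpins above and 45.5% below all 4 HEK293E controls, and library totals put 16.2% above and 69.7% below, so a position outside the control range was common. Within K562 siGFP, hsa-mir-193b ranked 58, hsa-mir-365a 110, hsa-mir-365b 111 and hsa-mir-193a 174 among 1061 detected hairpins.

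**Figure D4:**
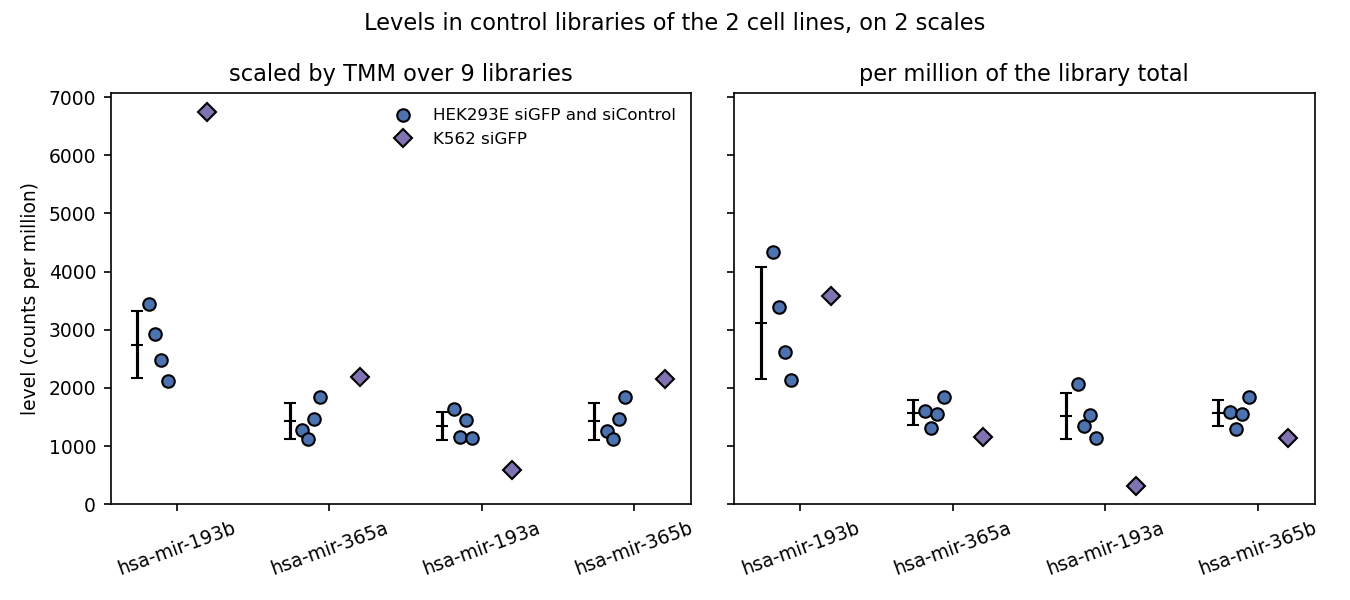
Levels of the 4 hairpins in the 4 HEK293E control libraries (circles, with mean ± SD) and the K562 siGFP library (diamond), scaled by TMM over 9 libraries on the left and by library totals on the right, on a linear axis from 0. The K562 value of hsa-mir-193a is below all HEK293E controls in both panels, and the K562 values of hsa-mir-365a and hsa-mir-365b are above the controls on the left and below them on the right.

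With the members themselves left out, the hairpins whose levels followed each member most closely over the 7 HEK293E libraries lay on other chromosomes. By the Pearson correlation of log2 CPM, a measure of likeness that includes the difference between siERH and control, these were hsa-mir-874 (0.998), hsa-mir-187 (0.986) and hsa-mir-500b (0.974) for hsa-mir-193a, and hsa-mir-769 (0.996), hsa-mir-326 (0.992) and hsa-mir-6895 (0.988) for hsa-mir-193b. For hsa-mir-365a they were hsa-mir-98 (0.987), hsa-mir-191 (0.986) and hsa-mir-29c (0.979). The lists of the 3 members share no hairpin. Each list holds the highest values among many hairpins over 7 libraries, so their height partly follows from the choice. Among members, the value was 0.88 for hsa-mir-193a with hsa-mir-193b, 0.85 for hsa-mir-193a with hsa-mir-365a or with its neighbour hsa-mir-365b, and 0.63 for hsa-mir-193b with its neighbour hsa-mir-365a or with hsa-mir-365b. For hsa-mir-365a with hsa-mir-365b, read as a single measurement, it was 0.99999.

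Other hairpins with a reported role in brown or beige fat were given from a list of 24, all tested in HEK293E. The quasi-likelihood test of edgeR called 7 lower and 0 higher with siERH, and 17 did not pass, against 16.2% lower and 23.8% higher over all 773 hairpins. The median log2 fold change was -0.17 for the list and -0.01 for all hairpins, nearer to 0 than any member. The 7 were hsa-mir-378a, hsa-mir-27b, hsa-mir-182, hsa-mir-328 and the near-identical hsa-mir-133a-1, hsa-mir-133a-2 and hsa-mir-133b, whose values may not be independent. In K562 with siERH-5, the log2 ratio was -0.33 for hsa-mir-378a and -0.37 for hsa-mir-27b, but 0.07 for hsa-mir-182, 0.31 for hsa-mir-328 and 1.16 for hsa-mir-133b, with both hsa-mir-133a copies above that. Of the 22 list hairpins measured in K562, 17 had a ratio below 0 on this TMM scale, where the median of all 646 hairpins was 0.09. Of the 4 most abundant, hsa-mir-378a, which lies within the gene of the co-activator PGC-1β, gave -0.60 ± 0.20 (SE, edgeR adjusted p = 0.0310), hsa-mir-106b gave -0.19 (adjusted p = 0.354), hsa-mir-93 gave -0.03 (adjusted p = 0.910) and hsa-mir-34a gave -0.09 (adjusted p = 0.781). With the replicate block 8 were called lower and 2 higher, in a fit that called 20.6% of all hairpins lower and 28.1% higher. The 8 again include the near-identical miR-133 hairpins, and the 2 were hsa-mir-196a-1 and hsa-mir-196a-2, which are copies.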

How the data were processed

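Small RNAs of 18 to 30 nt from 9 libraries were analysed from the deposited table of raw counts per miRNA hairpin, with blank cells read as 0. The submitters' processing notes name cutadapt, Bowtie2 and bedtools with hg38, without roles or order. The treatment of reads that fit several hairpins, and any collapsing by molecule, are not given in the sources used here, so intervals and floors (3 counts) cover counting error only. The authors' RPM table and the spike-in RNAs were not used, so every change is relative to the other hairpins. Nothing says that replicates were separate cultures, so p-values measure the spread between these samples.

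Counts were fitted over all hairpins averaging at least 10 counts by edgeR 4.0.16 (TMM, quasi-likelihood test, Benjamini-Hochberg, threshold 0.05) in R 4.3.3, with DESeq2 1.42.0, library totals, no filter, 1 row per set of copies, each control siRNA alone, replicate 2 alone, a GC trend removed and each library left out as alternatives. Log2 ratios without a test used CPM plus 1. The block uses the replicate numbers of the titles, which match the experimental groups of the labels, and deviations of same-numbered libraries correlated across 773 hairpins at 0.67, 0.46 and 0.50. The test was tested on simulated data: for 3 libraries against 4 and 773 hairpins it recovered 131 of 200 2-fold changes (65.5%), none of them in the wrong direction, and called 4 of the unchanged hairpins, while a separate run without any change gave 0 calls. The simulated libraries were independent, without the deviations that same-numbered libraries share here, so these rates hold for that setting only. Coordinates and annotation are from GENCODE release 29 (1480 of 1485 hairpins matched by name), printed sequences from RefSeq (all 4 matched) and folding from RNAfold 2.7.2. Python 3.11.15, pandas 2.3.3, scipy 1.17.1 and matplotlib 3.10.9 were used.

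The members, the brown fat list and the tests were chosen with earlier results of these data known. Besides the members, hairpins named are those within 20 kb, those sharing a seed, the 3 most correlated with each member, and up to 4 of the list by control level. The 7 called list hairpins and the 2 called with the block were named after their values were seen.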

Additional observations from a re-analysis of the deposited data

How the results depend on the processing

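Over 17 alternatives the siERH decreases of hsa-mir-193a (-1.10 to -0.72) and hsa-mir-365a (-1.59 to -1.05) kept their direction and call. hsa-mir-193b (-0.84 to -0.49, the latter with replicate 2 alone) was called in 14 of 17: it was not on library totals (-0.55) and not without 2 of the libraries, with a range of -0.84 to -0.60 when each was left out. Hairpins called lower numbered 125, and 67 on library totals, 190 with the replicate block and GC trend removed, and 76 to 130 with a library left out. Those called higher numbered 184, 120 with the GC trend removed, and 136 to 189 with a library left out. With the replicate block no call of a member in siERH against control changed (159 lower and 217 higher over all hairpins), and the blocked log2 fold change was -0.90 for hsa-mir-193a, -0.63 for hsa-mir-193b and -1.31 for hsa-mir-365a. For siERH-3 the 87 lower calls became 48 on totals, 142 with the replicate block and 19 to 102 with a library left out, and the 145 higher became 42 to 152. Its member values then ranged from -1.04 to -0.86 (hsa-mir-193a), -0.80 to -0.54 (hsa-mir-193b), -1.47 to -1.03 (hsa-mir-365a) and -1.48 to -1.03 (hsa-mir-365b). hsa-mir-193b passed for siERH-3 in DESeq2 (-0.74, adjusted p = 0.0186), with the replicate block (-0.66) and without siControl of replicate 2 (-0.78). Between control siRNAs, hairpins called lower numbered 2 in DESeq2, 2 without a filter and 61 with the replicate block, and those called higher 2, 2 and 72. On totals the control difference turned from 0.14 to -0.0029 for hsa-mir-365a and to -0.0011 for hsa-mir-365b.

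Library totals moved every untested value beyond counting error or the spread of controls. siERH-5 in HEK293E gave -0.39 (hsa-mir-193a), -0.22 (hsa-mir-193b), -1.11 (hsa-mir-365a) and -1.11 (hsa-mir-365b). K562 gave -0.024, 0.031, -0.54 and -0.52 in that order, and -0.24 for hsa-mir-193b without a filter on low counts. K562 siGFP against HEK293E controls gave -2.24, 0.25, -0.43 and -0.45. The 4 ratios within libraries kept their direction and stayed above the threshold in every alternative, though those with 20 or fewer splits cannot pass it. The cause of these shifts was not tested.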
